A study of Mus musculus with 24 samples.

Results

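The genes of fatty acid synthesis and desaturation were followed in splenic Tconv CD4+ cells: *Acly*, *Acaca*, *Fasn*, *Elovl6*, *Elovl5*, *Scd1*, *Scd2*, *Fads1*, *Fads2* and *Srebf1*. These 10 genes, a list of known pathway members matched by symbol to the Ensembl identifiers of the count table, are 10 of the 55414 genes listed there, of which 25030 had a count. All 10 passed the filter on low counts, which left 10566 genes for testing. Tconv CD4+ cells are helper T cells without the regulatory subset. They came from conplastic mice, whose nuclear genome is that of C57BL/6J throughout and whose mitochondrial DNA is that of C57BL/6J (mtDNA B6, labelled WT) or of the NZB strain (mtDNA NZB), most of them 2 to 3 months old. The cells were left resting or were activated for 72 h with beads that carry antibodies to CD3 and CD28, at 1 bead per cell, plus IL-2, and each of the 4 groups held 6 libraries. Nothing in the labels says whether a library is 1 mouse, so the p-values measure the spread between these libraries.

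Cells build fatty acids from citrate that leaves the mitochondria. *Acly* (ATP citrate lyase) splits it to acetyl-CoA, *Acaca* (acetyl-CoA carboxylase 1) makes malonyl-CoA, and *Fasn* (fatty acid synthase) joins these units to palmitate. *Elovl6* lengthens palmitate to stearate, and the stearoyl-CoA desaturases *Scd1* and *Scd2* put in the first double bond. *Fads1* and *Fads2* (the delta-5 and delta-6 desaturases) and the elongase *Elovl5* act on polyunsaturated fatty acids, and *Srebf1* encodes the transcription factor SREBP-1, which drives many of these genes. T cells that start to divide need new membrane lipid, and fatty acid synthesis is known to be raised in them.

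Each value below is the number of unique molecular identifiers (UMIs) of a gene in CPM, the counts scaled to a library size of 1000000 with edgeR's TMM factors. The assay tags the 3′ end of each RNA molecule once, so CPM needs no scaling by transcript length. Setting genes side by side assumes that their 3′ ends were captured and mapped equally well, which was not tested. Libraries held 2430562 to 5456681 UMI counts in mtDNA B6 cells and 641467 to 6449395 in mtDNA NZB cells apart from resting mtDNA NZB replicate 2, which held 51409, so that 1 or a few counts decide its values. The labelled state was checked with *Il2ra*, the activation-induced IL-2 receptor alpha chain, at 0 to 5.71 CPM in the 12 resting and 42 to 180 CPM in the 12 activated libraries. *Il2ra* encodes CD25, and cells bearing CD25 were removed in the isolation, so its low resting level was in part fixed by that step. Of the 7 listed activation markers, *Il2ra* among them, 3 rose and 3 fell with mtDNA B6, and 3 rose and 2 fell with mtDNA NZB. Their median sum went from 475 to 532 CPM with mtDNA B6 and from 509 to 595 CPM with mtDNA NZB. *Cd4* stood at 356 to 776 CPM at rest and 484 to 750 CPM after activation. RNA of other blood cells was present as well. The summed level of 8 B cell markers ranged from 5730 to 17500 CPM at rest and from 1120 to 6300 CPM after activation, and *Ighm* made up most of it. The summed level of 8 neutrophil markers ranged from 332 to 15500 CPM at rest and from 6.81 to 135 CPM after activation, and all 8 fell in both haplotypes, as did all 8 myeloid markers. Of the 8 erythroid markers 7 fell in both. Other markers rose. Both CD8 T cell markers rose in both haplotypes, from a median sum of 68.6 to 277 CPM with mtDNA B6 and from 51.8 to 164 CPM with mtDNA NZB. Of 3 tested platelet markers 2 rose in both (19 to 147 CPM and 17.8 to 103 CPM), and of 3 tested NK cell markers 2 rose and 1 fell with mtDNA B6 and 1 rose and 1 fell with mtDNA NZB. The magnetic isolation kept cells that antibodies to other lineages had not bound, a step meant to remove such cells. The fat cell markers *Adipoq* and *Plin1* did not exceed 0.84 CPM in any library. In bulk RNA a change in the share of a cell type and a change of RNA within each cell cannot be told apart, and the part that other cells have in the results below was not tested unless a value is given.

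Promoter sequence was read from a RefSeq table (build GRCm38.p6), which held 7 of the 10 genes and was placed on GRCm39 by exact match. It held 9 promoters of these 7 genes, with more than 1 for *Srebf1*, and none of *Scd1*, *Scd2* or *Fads1*. Each promoter covers 300 bases around a start site. The letters TCANNCCAC, which form part of many sterol response elements that SREBP proteins bind, were found on either strand in 4.18% of all promoters in the table and in those of *Acly* and *Elovl5*. The NF-Y box CCAAT was in 37.4% of all promoters and in at least 1 promoter of *Acly*, *Fasn*, *Elovl5* and *Srebf1*. The *Srebf1* promoter at chr11:60111404-60111703 held none. The E-box CACGTG was in 7.15% of all promoters and, among the 7 genes, in *Elovl5* alone. The windows below show the 2 genes with the sterol response letters and, in *Fasn*, 1 of its 3 NF-Y boxes, which overlaps another on the opposite strand. Each window is given 5′ to 3′ on the gene's strand, with the searched letters in capitals.
Acly, chr11:100418965-100418994, minus strand: cctgaaacgaTCAGGCCACagcccccagcc
Elovl5, chr9:77824651-77824680, plus strand: gacgtcacggTCAGCCCACgccggggttga
Fasn, chr11:120715418-120715447, minus strand: cggcctcggtgtCCAATtggtttcgatgtg
A match shows these letters only, and no binding was measured in these cells.

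On GRCm39, *Acly* (ENSMUSG00000020917), *Acaca* (ENSMUSG00000020532), *Fasn* (ENSMUSG00000025153) and *Srebf1* (ENSMUSG00000020538) lie on chromosome 11, and *Scd1* (ENSMUSG00000037071), *Scd2* (ENSMUSG00000025203), *Fads1* (ENSMUSG00000010663) and *Fads2* (ENSMUSG00000024665) on chromosome 19. *Elovl5* (ENSMUSG00000032349) lies on chromosome 9 and *Elovl6* (ENSMUSG00000041220) on chromosome 3. The members spanned a wide range of levels in resting cells. In resting mtDNA B6 cells *Srebf1* stood highest, with a median of 127 CPM, followed by *Acly* at 98.1 CPM and *Fasn* at 97.6 CPM, whose ranges overlapped. *Elovl5* had a median of 65.2 CPM and *Scd2* of 29.5 CPM. *Fads1* (16.1 CPM), *Acaca* (14.6 CPM), *Scd1* (10.1 CPM), *Fads2* (9.93 CPM) and *Elovl6* (7.31 CPM) formed a lower group in which neighbours overlapped. The sum over the 10 genes was nearly the same in the 6 resting mtDNA B6 libraries, at 458 to 490 CPM, and reached 610 to 734 CPM after activation. In resting mtDNA NZB cells 4 libraries had a sum of 464 to 480 CPM, while replicates 5 and 6 had 778 and 621 CPM. After activation the mtDNA NZB sum was 575 to 730 CPM.

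**Figure D1:**
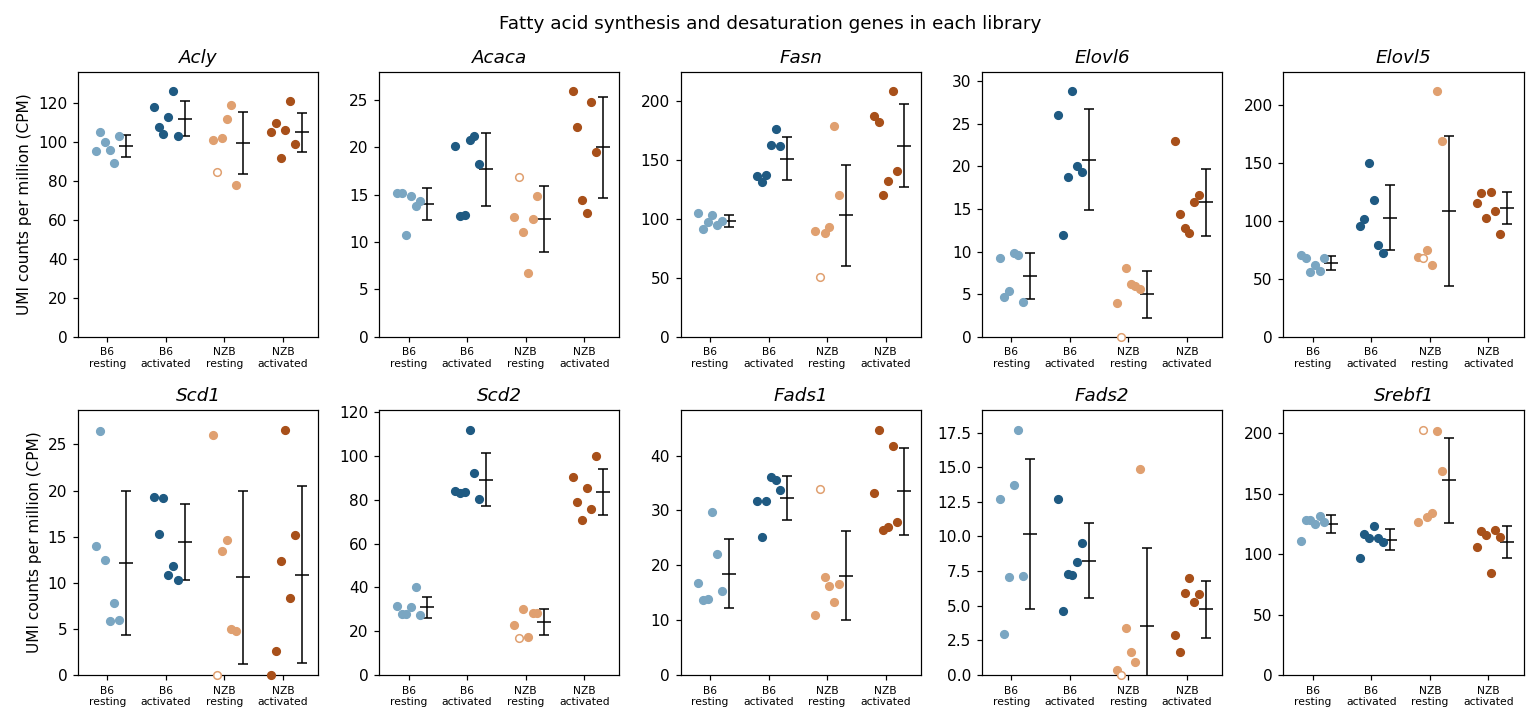
Level of each gene in CPM (vertical axes, linear and starting at 0) in the 6 libraries of each group, as points, with the mean and SD over the group as a dash and bar to their right (bars are cut at 0); the open point is resting mtDNA NZB replicate 2, with 51409 counts. Scd2 is at 16.9 to 40.2 CPM in the resting and at 71.0 to 112 CPM in the activated libraries, while Scd1 spreads from 0 to 26.6 CPM in both states.

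Activation raised the desaturase *Scd2* and the elongase *Elovl6* by the most, and *Fads1* and *Fasn* by less, in both haplotypes. In mtDNA B6 cells 5 of the 10 genes rose and 0 fell, against 22.4% of all tested genes that rose and 24.5% that fell. Of the mtDNA NZB values 5 rose and 1 fell, against 25.2% and 28.4% of all genes. The genes that rose in both were *Fasn*, *Scd2*, *Fads1* and *Elovl6*. *Elovl5* rose in mtDNA B6 cells, while *Acaca* rose and *Srebf1* fell in mtDNA NZB cells. The median log2 fold change of the 10 genes was 0.48 in mtDNA B6 and 0.41 in mtDNA NZB cells, beside −0.03 and −0.06 over all genes tested. The tests were quasi-likelihood tests in edgeR, with p-values adjusted over all tested genes by the Benjamini-Hochberg method, and a gene is said to have risen or fallen at an adjusted p of at most 0.05. A log2 fold change of 1 or more was reached by 2 of the called genes in mtDNA B6 cells (*Scd2* and *Elovl6*) and by 3 in mtDNA NZB cells (these and *Fads1*).

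**Figure D2:**
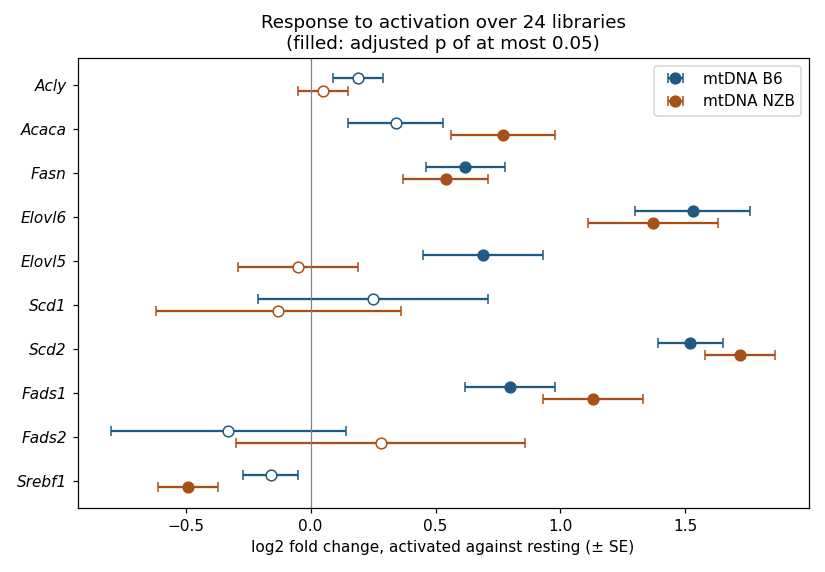
Log2 fold change of activated against resting cells (horizontal axis) with its standard error, for each gene in mtDNA B6 (blue) and mtDNA NZB cells (orange); filled points have an adjusted p of at most 0.05. Scd2 and Elovl6 lie farthest to the right in both haplotypes, at 1.37 to 1.72, and Srebf1 lies left of 0 at −0.16 and −0.49.

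*Acly*, at the head of the pathway, was not called in either haplotype, and *Acaca* rose in mtDNA NZB cells. *Acly* ranged from 89.3 to 105 CPM in resting mtDNA B6 cells (median 98.1) and from 103 to 126 CPM after activation (median 111). For mtDNA NZB the range was 77.9 to 119 CPM (median 101) and 91.9 to 121 CPM (median 105). The ranges overlapped in both haplotypes, and the log2 fold changes were 0.19 ± 0.10 (SE, adjusted p = 0.0992, edgeR) and 0.05 ± 0.10 (adjusted p = 0.724). The mtDNA B6 value passed the threshold when resting mtDNA NZB replicate 2 (0.24, adjusted p = 0.0261), resting mtDNA B6 replicate 3 (0.24, adjusted p = 0.045) or resting mtDNA B6 replicate 6 (0.25, adjusted p = 0.0385) was left out. *Acaca* lay between 10.8 and 15.2 CPM in resting mtDNA B6 cells (median 14.6) and between 12.8 and 21.2 CPM after activation (median 19.2), with overlap, and its log2 fold change of 0.34 ± 0.19 was not called (adjusted p = 0.149). In mtDNA NZB cells *Acaca* lay between 6.72 and 16.9 CPM at rest (median 12.5) and between 13.1 and 25.9 CPM after activation (median 20.8). It rose by 0.77 ± 0.21 on the log2 scale (adjusted p = 0.00316), a fold of 1.70, although 2 activated libraries (13.1 and 14.4 CPM) lay within the resting range. The difference between the haplotypes' *Acaca* responses was itself not called (0.43 ± 0.28, adjusted p = 0.496).

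*Fasn*, which makes palmitate, was at 91.4 to 105 CPM in resting mtDNA B6 libraries (median 97.6) and at 131 to 176 CPM in activated ones (median 150). Each activated library lay above each resting one, and *Fasn* rose by 0.62 ± 0.16 (adjusted p = 0.00245), a fold of 1.54. Non-overlap with the activated group higher was seen for 4 of the 10 genes in mtDNA B6 cells (*Fasn*, *Scd2*, *Elovl5* and *Elovl6*) beside 15.4% of all tested genes, and for 2 of the 10 in mtDNA NZB cells (*Scd2* and *Elovl6*) beside 11.9%. In resting mtDNA NZB cells *Fasn* was at 88.3, 89.5 and 92.9 CPM in replicates 3, 1 and 4, at 50.8 CPM from 3 counts in replicate 2, and at 179 and 120 CPM in replicates 5 and 6. The activated mtDNA NZB libraries held 120 to 208 CPM (median 161), so the groups overlapped through replicates 5 and 6. *Fasn* still rose, by 0.54 ± 0.17 (adjusted p = 0.00794), and by 0.91 ± 0.14 (adjusted p = 1.25e-05) without these 2 resting libraries.

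*Elovl6*, the elongase of saturated fatty acids, had the lowest median of the 10 genes in resting mtDNA B6 cells. It held 4.14 to 9.79 CPM in resting and 11.9 to 28.8 CPM in activated mtDNA B6 libraries, with medians of 7.31 and 19.7 CPM. The mtDNA NZB libraries held 0 to 8.06 CPM at rest and 12.2 to 23.0 CPM after activation, with medians of 5.79 and 15.1 CPM. No activated library overlapped a resting one of its haplotype. The rise was 1.53 ± 0.23 (adjusted p = 9.04e-06), or 2.88-fold, in mtDNA B6 and 1.37 ± 0.26 (adjusted p = 0.000111), or 2.58-fold, in mtDNA NZB cells.

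Of the 2 stearoyl-CoA desaturases, *Scd2* rose in both haplotypes and *Scd1* was called in neither. *Scd2* was at 31.4, 28.1, 27.7, 30.9, 40.2 and 27.5 CPM in resting mtDNA B6 replicates 1 to 6 and at 84.0, 82.9, 83.6, 112, 92.1 and 80.4 CPM in the activated ones. Its mtDNA NZB values were 16.9 to 30.2 CPM at rest (median 25.7) and 71.0 to 100 CPM after activation (median 82.2). No activated library overlapped a resting one in either haplotype. *Scd2* rose by 1.52 ± 0.13 (adjusted p = 1.18e-09), a fold of 2.87, in mtDNA B6 cells and by 1.72 ± 0.14 (adjusted p = 5.71e-10), a fold of 3.30, in mtDNA NZB cells, and the responses did not differ past the threshold (0.21 ± 0.19, adjusted p = 0.656). *Scd1*, the main isoform of liver and fat, lies near *Scd2* on chromosome 19 (44382894 to 44399154 and 44281613 to 44295303, GRCm39). It ran from 5.87 to 26.5 CPM in resting and from 10.3 to 19.3 CPM in activated mtDNA B6 libraries, with medians of 10.1 and 13.5 CPM. With mtDNA NZB it ran from 0 to 26.0 CPM and from 0 to 26.6 CPM, with medians of 9.24 and 10.4 CPM. Its groups overlapped over most of their range, and neither log2 fold change was called (0.25 ± 0.46, adjusted p = 0.675, and −0.13 ± 0.49, adjusted p = 0.847). The interval of 2 standard errors around the mtDNA B6 value, −0.67 to 1.17, still allows a change of about the size of that of *Fads1*.

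*Scd2* supplied most of the joint *Scd1* and *Scd2* counts in 23 of the 24 libraries, although in resting mtDNA NZB replicate 2 this was 1 of 1 count and in replicate 4 the interval of the 54.4% share, 44.8 to 63.7%, reaches below an even split. Its share in resting mtDNA B6 libraries had a median of 75.6%, from 51.5% (85 of 165 counts, exact binomial 95% interval 43.6 to 59.4%) to 84.0%. After activation the share was 81.3% to 91.2% (median 86.5%). In the 5 deeper resting mtDNA NZB libraries it ran from 46.9% to 85.5%, and after activation from 76.3% to 100% (63 of 63 counts, interval 94.3 to 100%). These intervals cover counting error only. In each of the 4 groups the library with the lowest share was the one with the highest *Scd1*.

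The spread of *Scd1* went with that of B cell transcripts. Over the 23 libraries with at least 500000 counts, the gene whose log2 CPM was most like that of *Scd1* was *Bank1*, a signalling scaffold of B cells (Pearson r = 0.94 across libraries, given as a description, since other genes share depth and scaling). For B cell markers of the list, r with *Scd1* was 0.92 for *Cd79b*, 0.87 for *Cd22*, 0.87 for *Ms4a1*, 0.81 for *Cd79a*, 0.75 for *Pax5*, 0.72 for *Ebf1* and 0.36 for *Ighm*. At rest *Scd1* was highest in mtDNA B6 replicate 2 (26.5 CPM) and mtDNA NZB replicate 1 (26.0 CPM), where *Bank1* stood at 45.3 and 46.1 CPM. It was lowest, among libraries of similar depth, in mtDNA NZB replicates 5 and 6 (5.04 and 4.82 CPM), with *Bank1* at 6.42 and 5.62 CPM. Of the activated libraries, mtDNA NZB replicates 1 and 2 held 0 and 2.61 CPM of *Scd1*, beside 1.44 and 4.89 CPM of *Bank1*, and replicate 4 held 26.6 CPM beside 40.1 CPM of *Bank1*. The summed level of the B cell markers other than *Ighm* was 116 and 103 CPM in replicates 1 and 2 and 1090 CPM in replicate 4. *Scd2* in the same 3 libraries was at 90.6, 78.9 and 85.4 CPM. *Ighm* fell on activation (log2 −1.58 ± 0.34, adjusted p = 0.000435, in mtDNA B6 and −2.11 ± 0.34, adjusted p = 1.43e-05, in mtDNA NZB cells), whereas the other 7 B cell markers were not called in either haplotype. The part of B cells in the level of *Scd1* was not tested.

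**Figure D3:**
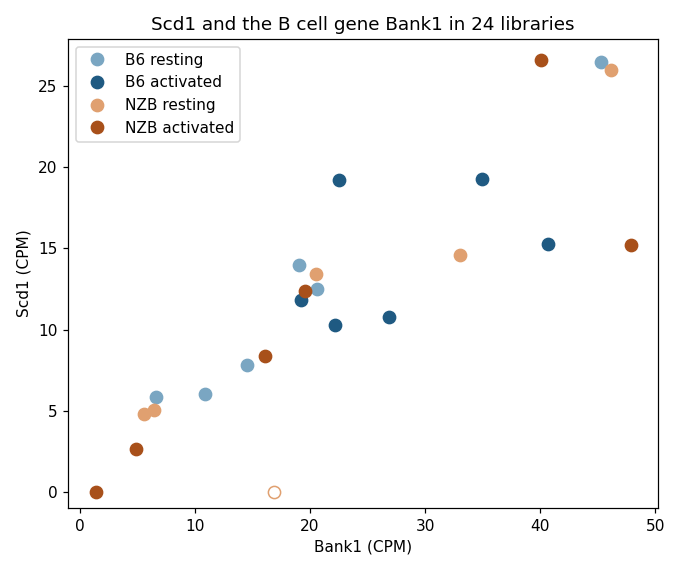
Scd1 against Bank1 in CPM in the 24 libraries, coloured by group; the open point is the library with 51409 counts. Scd1 is at 0 CPM where Bank1 is at 1.44 CPM and at 26.5 CPM where Bank1 is at 45.3 CPM, while activated mtDNA NZB replicate 6 holds the highest Bank1, 47.9 CPM, with 15.2 CPM of Scd1.

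Of the genes for polyunsaturated fatty acids, *Fads1* rose in both haplotypes. It was at 13.6 to 29.8 CPM in resting mtDNA B6 cells (median 16.1) and at 25.1 to 36.0 CPM after activation (median 32.8), and 1 resting library, replicate 4, lay within the activated range. In mtDNA NZB cells it was at 11.0 to 17.8 CPM in the 5 deeper resting libraries, at 33.9 CPM from 2 counts in replicate 2, and at 26.5 to 44.7 CPM after activation (median 30.5). The log2 rise was 0.80 ± 0.18 (adjusted p = 0.000914) in mtDNA B6 and 1.13 ± 0.20 (adjusted p = 4.57e-05) in mtDNA NZB cells, and the difference of 0.33 ± 0.27 between them was not called (adjusted p = 0.604). *Fads1* and *Fads2* lie near each other on chromosome 19 (10160167 to 10174241 and 10038130 to 10079203, GRCm39) on opposite strands.

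*Fads2* was called in neither haplotype over the 24 libraries. In mtDNA B6 cells it was at 2.98 to 17.7 CPM at rest (median 9.93) and at 4.59 to 12.7 CPM after activation (median 7.73). In resting mtDNA NZB cells it was at 0.334, 0, 3.36, 1.68, 0.917 and 14.9 CPM in replicates 1 to 6, and after activation at 1.63 to 6.97 CPM (median 5.56). A single resting library, replicate 6, thus held more than all activated mtDNA NZB libraries, while the other 5 held little. The log2 fold changes were −0.33 ± 0.47 (adjusted p = 0.579) in mtDNA B6 and 0.28 ± 0.58 (adjusted p = 0.705) in mtDNA NZB cells. Without resting mtDNA NZB replicate 6, *Fads2* rose in mtDNA NZB cells by 1.61 ± 0.53 (adjusted p = 0.0134). In the 21 libraries left when resting mtDNA NZB replicates 2 and 6 and activated replicate 6 were set aside, a set of libraries taken over from an earlier analysis of these data and not chosen for a stated fault, it rose by 1.52 ± 0.59 (adjusted p = 0.0326), and 6 of the 10 genes rose in mtDNA NZB cells, beside 24.5% of 10826 genes tested.

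The elongase *Elovl5* was at 55.7 to 70.6 CPM in resting mtDNA B6 cells (median 65.2) and at 72.1 to 150 CPM after activation (median 98.7), with no overlap. It rose by 0.69 ± 0.24 (adjusted p = 0.0182), a fold of 1.61, and without activated mtDNA B6 replicate 3, which held the 150 CPM, the value was 0.56 ± 0.24 (adjusted p = 0.0602). In mtDNA NZB cells the activated libraries, at 88.7 to 125 CPM (median 113), lay above resting replicates 1 to 4 (69.1, 67.8, 74.6 and 62.4 CPM) and below replicates 5 and 6 (212 and 169 CPM). The log2 fold change was −0.05 ± 0.24 (adjusted p = 0.886). With resting replicates 5 and 6 both left out, a choice made after their values were seen, it was 0.74 ± 0.17 (adjusted p = 0.00074).

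*Srebf1* was the 1 gene of the 10 that fell, in mtDNA NZB cells. In mtDNA B6 cells it was at 111 to 132 CPM at rest (median 127) and at 97.0 to 123 CPM after activation (median 113), and the log2 fold change of −0.16 ± 0.11 was not called (adjusted p = 0.264). In mtDNA NZB cells it was at 127, 203, 131, 134, 202 and 169 CPM in resting replicates 1 to 6 and at 84.5 to 120 CPM after activation (median 115). Each activated mtDNA NZB library lay below each resting one, a pattern shared by 6.95% of all genes, and *Srebf1* fell by 0.49 ± 0.12 on the log2 scale (adjusted p = 0.000921). Without resting replicates 5 and 6 the value was −0.24 ± 0.11 (adjusted p = 0.0584). The exons of *Rai1* on the opposite strand overlap the last 1000 bases of *Srebf1*, and since the sources used here do not say whether strand was counted, its counts are less certain than those of the other 9 genes.

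Between the haplotypes at rest, none of the 10 genes passed the threshold in edgeR's test over 24 libraries, beside 1.90% of all genes higher and 0.861% lower in mtDNA NZB cells. These shares, 201 and 91 of 10566 genes, depended on the fit and on single libraries. They were 0 and 0 of 9907 genes with only the 2 groups compared. With a term for the sets of libraries described under processing they were 0 and 1 of 10566 genes. They fell to 0 and 0 genes without resting mtDNA NZB replicate 5 or resting mtDNA B6 replicate 4, and to 0 and 2, 2 and 6, and 20 and 7 genes when resting mtDNA B6 replicate 1, 3 or 5 was left out. Leaving out replicate 1, 3 or 4 of the resting mtDNA NZB libraries gave 447 and 125, 435 and 152, and 366 and 112 genes, and leaving out replicate 6 gave 158 and 369. At an unadjusted p under 0.05 there were 4 (*Elovl5*, *Srebf1*, *Fads2* and *Scd2*), beside 20.8% of all genes, and DESeq2 called 1, *Elovl5*. *Elovl5* had the largest positive difference, 0.85 ± 0.24 (adjusted p = 0.0564). Leaving out resting mtDNA NZB replicate 1, 3 or 4, libraries that held 62.4 to 74.6 CPM, brought it past the threshold (0.96 to 1.00, adjusted p from 0.0212 to 0.028). Leaving out replicates 5 and 6 together put it at 0.09 ± 0.16 (adjusted p = 0.886). *Srebf1* was 0.31 ± 0.12 higher (adjusted p = 0.122) and 0.09 ± 0.11 without these 2 libraries. *Scd2* was −0.30 ± 0.14 on the same scale (adjusted p = 0.225), and *Fasn* 0.18 ± 0.17 (adjusted p = 0.597).

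*Fads2* had the largest negative difference at rest, and its call turned on 1 library. Over 24 libraries it was −1.35 ± 0.54 (adjusted p = 0.151). Without resting mtDNA NZB replicate 6 it was −2.68 ± 0.50 (adjusted p = 0.00399), and over the 21 libraries −2.67 ± 0.52 (adjusted p = 0.00689), the only 1 of the 10 genes called there, beside 3.88% of all genes that were lower in mtDNA NZB cells. The counts behind it were small. The 4 resting mtDNA NZB libraries among the 21 held 1 to 10 counts each (mean 1.57 ± 1.31 CPM, SD), against 9 to 100 counts in the 6 mtDNA B6 libraries (mean 10.2 ± 5.41 CPM). The ranges met at 2.98 CPM in mtDNA B6 replicate 2 and 3.36 CPM in mtDNA NZB replicate 3. Replicate 6 was also the library with the highest neutrophil marker sum, 15500 CPM, where the other deeper resting mtDNA NZB libraries had 332 to 685 CPM and the resting mtDNA B6 libraries 515 to 5830 CPM. In resting mtDNA B6 replicates 1 to 6 the neutrophil sums were 4150, 515, 842, 854, 5140 and 5830 CPM, beside 12.7, 2.98, 7.08, 13.7, 17.7 and 7.15 CPM of *Fads2*. The lowest sum stood with the lowest *Fads2*, and the highest sum with a middle value. The share that neutrophil RNA has in the *Fads2* difference was not tested.

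**Figure D4:**
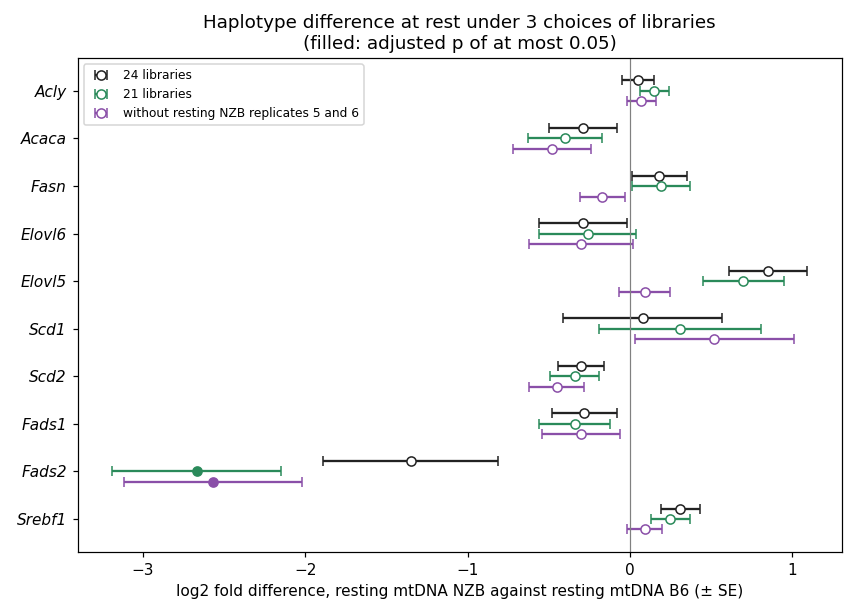
Log2 difference of resting mtDNA NZB against resting mtDNA B6 cells (horizontal axis) with its standard error, over 24 libraries (black), over 21 libraries (green) and without resting mtDNA NZB replicates 5 and 6 (purple); filled points have an adjusted p of at most 0.05. Elovl5 moves from 0.85 to 0.09 when replicates 5 and 6 are left out, and Fads2 moves from −1.35 to −2.67 and −2.57.

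Resting mtDNA NZB replicates 5 and 6 stood apart in several members at once and also in genes of related pathways. *Elovl5*, *Fasn* and *Srebf1* were higher there than in every resting mtDNA B6 library, whereas *Scd2* (28.4 and 28.5 CPM) and *Fads1* (13.3 and 16.5 CPM) were near the mtDNA B6 values and *Acly* went both ways (119 and 77.9 CPM). *Srebf1* was also above the highest mtDNA B6 value, 132 CPM, in replicate 4 (134 CPM) and in replicate 2 (203 CPM from 12 counts). Of the listed genes outside the 10, *Chka* (choline kinase, the first step of phosphatidylcholine synthesis) was at 296 and 160 CPM in replicates 5 and 6, against 42.4 to 58.1 CPM in replicates 1, 3 and 4 and 46.6 to 72.2 CPM in mtDNA B6 cells. *Lpin1*, a phosphatidate phosphatase, was at 165 and 87.9 CPM against 44.4 to 56 CPM in those 3 replicates. *Hmgcs1*, an enzyme of the mevalonate pathway, was at 175 and 108 CPM against 54.4 to 72.9 CPM, and 45.1 to 63.1 CPM in mtDNA B6 cells. *Insig1*, which holds SREBP in the endoplasmic reticulum, was at 88.4 and 51.4 CPM against 28.0 to 32.7 CPM. Other listed genes were not raised in replicates 5 and 6, such as *Lpcat3* (51.8 and 46.2 CPM, against 49.6 to 64.2 CPM in mtDNA B6 cells) and *Agpat3* (117 and 88.7 CPM, against 99.3 to 147 CPM). The genes outside the 10 were looked at in single libraries after the values of *Elovl5* had been seen. The summed B cell markers other than *Ighm* in replicates 5 and 6, 265 and 245 CPM, were the lowest of the resting libraries (next 268 CPM, highest 1490 CPM). The neutrophil sums of these 2 replicates were the lowest and the highest of the resting libraries (332 and 15500 CPM). The part of other cells in these levels was not tested.

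**Figure D5:**
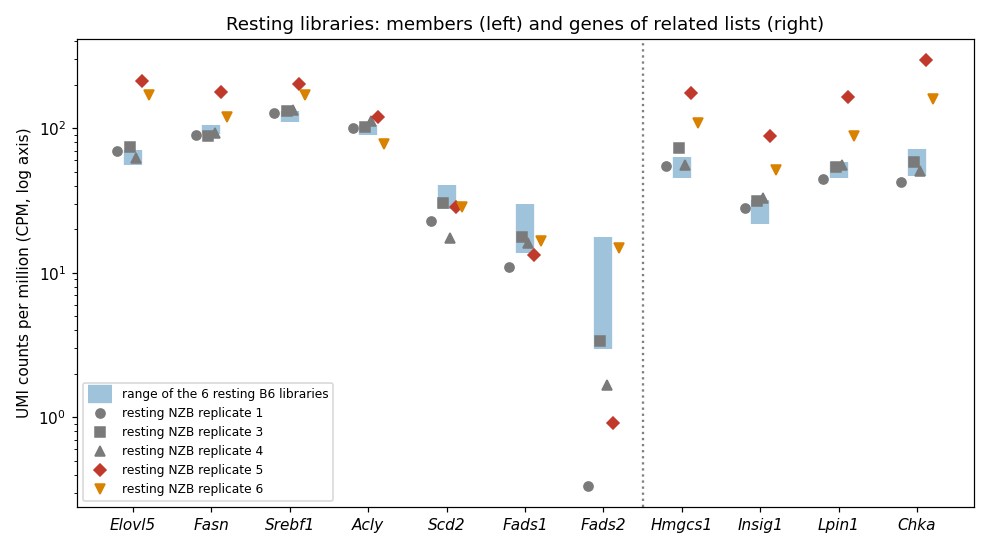
Levels in resting libraries in CPM (vertical axis, log scale), with the range of the 6 mtDNA B6 libraries as a blue bar and mtDNA NZB replicates 1, 3, 4, 5 and 6 as single points; genes of fatty acid synthesis and desaturation are left of the dotted line, genes of related lists right of it. Replicates 5 and 6 lie above the bar for Elovl5 (212 and 169 CPM), Fasn, Srebf1, Hmgcs1, Insig1, Lpin1 and Chka, and replicate 6 alone is high for Fads2 among the mtDNA NZB libraries (14.9 CPM).

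Between the haplotypes in activated cells none of the 10 genes was called by edgeR or DESeq2, over 24 or over 21 libraries with edgeR. The same held for all 10566 genes over 24 libraries with edgeR (0%). Of the 10 genes 0 had an unadjusted p under 0.05, beside 3.09% of all genes. The differences that lay farthest from 0 were those of *Fads2* (−0.73 ± 0.51) and *Elovl6* (−0.45 ± 0.23). *Fads2* was at 8.25 ± 2.72 CPM (SD, n = 6) in activated mtDNA B6 and 4.75 ± 2.05 CPM (SD, n = 6) in activated mtDNA NZB cells, and *Elovl6* at 20.8 ± 5.94 CPM and 15.8 ± 3.93 CPM. For *Acly*, *Scd2* and *Srebf1* the interval of 2 standard errors stayed within −0.35 to 0.20. It was wider for *Scd1* (−1.24 to 0.63) and *Fads2* (−1.74 to 0.28), so that differences of these genes up to those limits are not excluded.

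The response to activation did not differ between the haplotypes past the threshold for any of the 10 genes, by edgeR or DESeq2. Over 24 libraries edgeR called 0 of all 10566 genes (0%) and DESeq2 called 1. Over 21 libraries edgeR called 0 of the 10 genes. There 0.878% of 10826 genes had a called positive and 0.166% a called negative difference (mtDNA NZB minus mtDNA B6). At an unadjusted p under 0.05 over 24 libraries there were 2 of the 10, beside 14.3% of all genes. These were *Elovl5* (−0.74 ± 0.34, adjusted p = 0.323 by edgeR) and *Srebf1* (−0.34 ± 0.16, adjusted p = 0.344). Both differences shrank without resting mtDNA NZB replicates 5 and 6, to a value of 0 for *Elovl5* and of −0.13 for *Srebf1*. The *Fads2* responses differed by 0.62 ± 0.74 over 24 libraries and by 1.86 ± 0.69 over 21 (adjusted p = 0.142).

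Among the other genes of fatty acid synthesis, 19 of 32 listed could be tested. On activation 6 rose and 3 fell in mtDNA B6 cells, while mtDNA NZB cells had 7 that rose and 2 that fell. These and the list counts that follow stand beside the 22.4% of all genes that rose and 24.5% that fell in mtDNA B6 cells, and the 25.2% and 28.4% in mtDNA NZB cells. Over 21 libraries 5 of 21 fell in mtDNA B6 cells. *Fabp5*, a fatty acid binding protein, rose most, from 10 ± 2.12 to 26.5 ± 8.83 CPM (SD, n = 6) in mtDNA B6 and from 9.46 ± 5.18 to 30.0 ± 9.53 CPM in mtDNA NZB cells (log2 1.39 and 1.92). The acyl-CoA synthetase *Acsl5* rose by 1.01 and 1.37 on the log2 scale and *Elovl1*, an elongase of very long chains, by 0.82 and 0.94. *Acsl1*, another acyl-CoA synthetase, fell by 1.70 and 1.11 and *Acss2*, which makes acetyl-CoA from acetate, fell by 0.90 and 0.82. Adjusted p-values of these 5 genes were between 7.71e-06 and 0.0139 in edgeR's test. *Acsl1* is also expressed in myeloid cells, whose markers all fell. Its level in resting mtDNA NZB replicate 6, 51.0 CPM, was above the other resting mtDNA NZB libraries (0 to 17.0 CPM), and the myeloid marker sum there was 3120 CPM. Replicates 1, 3, 4 and 5 held 11.7, 10.7, 15.4 and 17.0 CPM of *Acsl1* beside myeloid sums of 1210, 517, 1420 and 635 CPM. The part of myeloid RNA in the level of *Acsl1* was not tested.

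For the genes that control SREBP and lipogenesis, counts were near the shares over all genes in mtDNA B6 cells, with 5 of 20 tested up and 6 down in mtDNA B6 cells, against 3 up and 8 down for mtDNA NZB. *Insig1* fell by 0.68 (adjusted p = 0.0331) and 1.52 (adjusted p = 4.39e-05), *Lpin1* by 0.81 and 1.61, and the coactivator *Ppargc1b* by 0.94 and 1.25. The pseudokinase *Trib3* rose by 1.22 and 0.92, and the nuclear receptor *Rxra* by 0.81 and 1.21. The difference between the haplotypes' responses was called for 0 genes of this list. Resting mtDNA NZB replicates 5 and 6, described above, hold high resting values of *Insig1* and *Lpin1*.

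Cholesterol synthesis, the other branch that SREBP proteins drive, had 14 of 20 tested genes up and 0 down in mtDNA B6 cells, and mtDNA NZB cells had 13 up and 0 down, with median log2 fold changes of 0.89 and 0.62. *Sqle*, squalene epoxidase, rose from 14.7 ± 2.98 to 40.8 ± 9.10 CPM in mtDNA B6 cells and from 12.4 ± 9.10 to 40.1 ± 4.08 CPM in mtDNA NZB cells (SD, n = 6), and *Fdps*, farnesyl diphosphate synthase, rose by 1.23 and 1.45 on the log2 scale. Mitochondrial fatty acid oxidation, the opposite process, had 11 of 17 genes up and 2 down in mtDNA B6 cells, against 11 up and 0 down for mtDNA NZB, with smaller medians of 0.36 and 0.50. *Acadl*, the long-chain acyl-CoA dehydrogenase, rose from 109 ± 11.6 to 188 ± 29.0 CPM in mtDNA B6 cells and from 94.2 ± 33.7 to 185 ± 20.0 CPM in mtDNA NZB cells, and the electron transfer subunits *Etfa* and *Etfb* rose by 0.57 to 0.98.

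Genes that supply NADPH, which fatty acid synthase consumes, had 1 up and 2 down of 9 tested in mtDNA B6 cells, against 5 up and 0 down for mtDNA NZB. At rest 1 was lower in mtDNA NZB cells, beside 0.861% of all genes, and 5 were over 21 libraries, beside 3.88%. Malic enzyme 2 (*Me2*) rose by 0.66 and 0.81. *Mthfd1*, a folate enzyme, was lower at rest in mtDNA NZB cells (46.7 ± 17.9 against 91.3 ± 27.2 CPM, SD, n = 6, log2 −0.82 ± 0.19, adjusted p = 0.0298) and rose in mtDNA NZB cells by 0.81 ± 0.19 (adjusted p = 0.000793), beside −0.04 ± 0.18 in mtDNA B6 cells. The difference between these responses was called for 0 of the 9 genes over 24 libraries and for 1 over 21. This resting call of *Mthfd1* was lost without resting mtDNA NZB replicate 5 (−0.70, adjusted p = 0.135) and without resting mtDNA B6 replicate 1, 3, 4 or 5 (−0.90 to −0.67, adjusted p from 0.0588 to 0.0793). *Cpt2*, of the carnitine shuttle, was also lower at rest in mtDNA NZB cells (−0.70 ± 0.19, adjusted p = 0.0464, and −0.55, adjusted p = 0.0705, over 21 libraries), and *Hmgcs1* was higher (0.75 ± 0.21, adjusted p = 0.0469, and 0.69, adjusted p = 0.066, over 21 libraries). Leaving out single libraries ended the *Cpt2* call in 19 and the *Hmgcs1* call in 18 of 24 cases. Without resting mtDNA NZB replicate 5 *Hmgcs1* was at 0.41 (adjusted p = 0.283) and *Cpt2* at −0.59 (adjusted p = 0.211), and without replicates 5 and 6 *Hmgcs1* was at 0.15 (adjusted p = 0.709). Of the genes that acylate glycerol and make phospholipids, 3 rose and 4 fell of 20 tested in mtDNA B6 cells, against 6 and 7 for mtDNA NZB. Over 21 libraries the counts were 4 and 6 in mtDNA B6 cells, against 5 and 2 for mtDNA NZB. *Agpat3* rose by 0.52 and 0.86 and *Lpcat3*, which puts polyunsaturated chains into phospholipids, by 0.43 and 0.56. *Chka* fell by 1.45 and 2.77, *Lpcat2* fell by 2.88 and 3.49 and *Dgat2* changed by −1.81 and −2.14, and the last 2 were at or below 32.1 CPM in every resting library with their highest mtDNA NZB values, 32.1 and 31.3 CPM, in replicate 6, the library with the most neutrophil marker RNA. *Dgat2* was also at 17.4 CPM in replicate 5, which had the lowest resting neutrophil sum (332 CPM), against 4.2 to 7.01 CPM in replicates 1, 3 and 4. The part of neutrophil RNA in these levels was not tested.

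The members fell into groups by how they varied over the 23 deeper libraries, given here as Pearson r of log2 CPM without a test, since the points share the 2 states and the scaling. *Scd2*, *Fads1* and *Elovl6* were most alike (0.86 to 0.91), and *Acaca* and *Fasn* had r of 0.66 to 0.74 with these 3. *Srebf1* ran against them (−0.53 to −0.60). *Scd1* had r between −0.44 and 0.07 with the other 9, and *Fads2* between −0.38 and 0.33. The gene outside the list most like *Fasn* was *Hnrnpab* (r = 0.95), for *Scd2* it was *Cacnb3* (0.98), for *Fads1* *Zdhhc3* (0.94), for *Elovl6* *Msl3* (0.93), for *Elovl5* *Ap1g1* (0.92), for *Fads2* *Nt5dc2* (0.87), for *Acaca* *Lyar* (0.85) and for *Acly* *Sall2* (0.75). The mean of the 10 genes was most like *Uchl5*, *Ncbp1*, *Cct8*, *Suv39h1* and *Hnrnpm* (0.92 to 0.94).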

How the data were processed

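RNA of splenic Tconv CD4+ cells (CD4+ CD25−) was sequenced by bulk MARS-seq, which tags the 3′ end of each molecule with a UMI. The authors trimmed reads with cutadapt, dropped those under 30 bases, mapped them with STAR to the last 1000 bases of genes on GRCm39 and counted genes with HTSeq (versions not given in the sources used here). They deposited raw UMI counts per gene, corrected for UMI saturation, and a second table of larger counts whose relation to UMIs the sources do not state. The input RNA is given as 30 ng in the labels and 60 ng in the methods. A total of 1 column matched no sample and was not used. Rows outside the annotation held 0.0272% of counts.

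Libraries were grouped by the labels. Counts were analysed with edgeR 4.0.16 in R 4.3.3 (filterByExpr, TMM, quasi-likelihood test, 1 fit of 4 groups over 24 libraries, Benjamini-Hochberg over 10566 genes). A call is an adjusted p of at most 0.05, and SE is the log2 fold change over the square root of F. No pair of replicates agreed within counting error (chi-square of counts over its degrees of freedom at least 2.77). Likeness used log2 CPM (prior count 2) in the 23 libraries of at least 500000 counts. The scripts were tested on simulated data.

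Alternatives were DESeq2 1.42.0, RLE size factors, 2 other filters, the second table, only the groups compared, and 21 libraries. Others were replicate blocks, each library left out, and a term for sets of libraries by counts of the second table per UMI. These sets were unevenly spread over the groups. Sets 1 to 3 held 0, 4 and 2 resting and 5, 1 and 0 activated mtDNA B6 libraries. For mtDNA NZB they held 1, 1 and 4 resting and 2, 2 and 2 activated libraries. With mtDNA B6, state and set thus largely went together, and the set term cannot fully separate them. Adding it over 24 libraries took the activation calls for mtDNA B6 from 2368 up and 2590 down to 1721 and 1812. Those for mtDNA NZB went from 2660 and 2998 to 2583 and 2809. Genes outside the 10 were named when called between haplotypes, or as the up to 3 largest rises and falls of a list called alike in both haplotypes at 5 CPM or more. A few genes that these rules name are not reported here. The members and lists were chosen with earlier results of these data known.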

Additional observations from a re-analysis of the deposited data

Results flagged for a closer look

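In 6 of 40 gene and group pairs a single library stood apart from the other 5 by Dixon's criterion, which chance meets in about 1 in 20 groups. The 2 pairs in resting mtDNA NZB cells were *Fads2* in replicate 6 (14.9 CPM), which decided the resting *Fads2* call, and *Fads1* in replicate 2 (33.9 CPM), which rests on 2 counts. In resting mtDNA B6 cells *Acaca* was low in replicate 3 (10.8 CPM), *Srebf1* was low in replicate 1 (111 CPM) and *Scd2* was high in replicate 5 (40.2 CPM). In activated mtDNA B6 cells *Scd2* was high in replicate 4 (112 CPM). *Scd2* was called in both haplotypes whichever single library was left out.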

How the results depend on the processing

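The number of the 10 genes called between the haplotypes at rest, 0, became 1 under 4 alternatives: with DESeq2 (*Elovl5*, log2 0.83), over 21 libraries (*Fads2*), over 21 libraries with the reads-per-UMI set as a term (*Fads2*, −2.87) and without resting mtDNA NZB replicates 5 and 6 (*Fads2*, −2.57, chosen after seeing the data). With single libraries left out it ranged from 0 to 1. The mtDNA NZB activation value of *Elovl5* turned from −0.05 to 0.74 without those 2 libraries (adjusted p = 0.00074, edgeR). It was also 0.74 with the replicate block by the label's number over 21 libraries (adjusted p = 0.00825, edgeR). That fit did not use the 2 libraries either. Replicate 6 was among those set aside, and replicate 5 shared its label number with no activated library, so its block took up its value. Why these 2 libraries held more *Elovl5* was not tested. The methods state that isolated cells were split into resting and activated ones, so libraries with the same label number may share a source. Whether they do is not stated, and the main tests did not pair them. Same-numbered mtDNA B6 libraries correlated at −0.08 to 0.25 (5 pairs, 3 of them over 0.1, median 0.14 against −0.01 for other pairs). The mtDNA NZB ones correlated at −0.15 to 0.01 (4 pairs). In mtDNA B6 and mtDNA NZB cells 2 and 0 resting libraries correlated best with their own number. With the replicate block by the label's number the genes called on activation numbered 4 in mtDNA B6 and 6 in mtDNA NZB cells, *Elovl5* being lost in mtDNA B6 (0.57, adjusted p = 0.075). The mtDNA B6 *Elovl5* call was also lost with the set term over 21 libraries (0.75, adjusted p = 0.0878). *Acly* in mtDNA B6 cells was called with a stricter filter (0.23, adjusted p = 0.0371), with only the 2 groups compared (0.19, adjusted p = 0.0366) and without replicates 5 and 6 (0.24, adjusted p = 0.0104). The counts of the 10 genes called between haplotypes in activated cells and for the difference of responses were 0 throughout. Depth limits resting mtDNA NZB replicate 2 (51409 counts) and genes near 5 CPM such as *Fads2* and *Elovl6*.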
